A study of Homo sapiens with 12 samples.

Results

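Wild-type ETV4 was compared with eGFP alone in 22Rv1, a human prostate cancer cell line derived from the CWR22 xenograft. The comparison holds 4 of the 12 libraries of the study, 2 with wild-type ETV4 (ETV4WT) and 2 with eGFP, chosen by the cell line and construct in the labels. In the study 22Rv1 and PC3 cells were infected with virus carrying eGFP alone, ETV4WT followed by an internal ribosome entry site and eGFP, or a mutated ETV4 (ETV4AAA) in the same form, with 2 libraries per group. Live eGFP-positive cells were sorted after 1 week of overexpression, with DAPI to leave out dead cells, and polyadenylated RNA was sequenced. The labels name a lentivirus and also an MSCV-based vector, and nothing in the sources used here says which residues differ in ETV4AAA or whether the 2 libraries of a group are separate cultures. The p-values therefore measure the spread between these samples, which may be technical.

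ETV4 is an ETS transcription factor. With ETV1 and ETV5 it forms the PEA3 group, whose members carry an ETS DNA-binding domain and an acidic transactivation domain, act downstream of the RAS and ERK cascade and are removed through the ubiquitin ligase COP1. Gene fusions activate ETV4 or ETV1 in a subset of prostate tumours. 22Rv1 is a luminal-type line, and PC3 was grown from a prostate tumour's bone metastasis. The counts in bulk RNA do not tell a change in the share of a kind of cell from a change in RNA per cell.

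The 4 libraries hold 45275349 to 50226044 counts. Levels are library-scaled counts (CPM), and changes are log2 of ETV4WT over eGFP with the standard error (SE) of the fit. A gene is called when its Benjamini-Hochberg adjusted p in edgeR's quasi-likelihood test is under 0.05. The labelled line fits its markers: the luminal keratin KRT8 had 21059 to 37979 counts per library and the prostate homeobox gene HOXB13 29057 to 36786. The basal keratin KRT5 had at most 1 count in a library, the leukocyte gene PTPRC at most 2, the endothelial gene PECAM1 and the T cell gene CD3E 0 in every library, and AXL, which is high in PC3, at most 1. A count of 0 allows up to 3 counts per library and covers counting error only. Over the 7 tested genes of 18 immune cell markers, the summed level was 11.2 and 11.7 CPM with eGFP and 12 and 11.9 CPM with ETV4WT.

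ETV4 itself was measured at 31.2 and 24.9 CPM in the controls and at 385 and 484 CPM with ETV4WT. Both ETV4WT libraries lay far above both eGFP libraries, a log2 change of 3.95 ± 0.37 (adjusted p = 0.000156), as the labels require. The table does not separate transcripts of the introduced ETV4 from those of the cell's own gene. ETV4 (ENSG00000175832) lies on chromosome 17 from 43527844 to 43579620 on the minus strand. Positions here are on GRCh38, as GENCODE 29 gives them, and each gene whose position is given is protein-coding there.

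Few genes passed the threshold with 2 libraries per group. Of 23238 genes tested, 348 were called (1.5%), 246 of them higher with ETV4WT (1.06%) and 102 lower (0.439%). These shares are the background for the list counts below. In the same edgeR test 3374 of the 23238 genes had an unadjusted p under 0.05, 1796 higher and 1578 lower. These are the background for the unadjusted list counts below. The change was over 2-fold for 173 of the genes called higher and 48 of those called lower, and 310 of the 348 are protein-coding. The median log2 change was 0.01 over all genes tested, 1.37 over those called higher and -0.98 over those called lower. In all 348 the libraries of the groups did not overlap, and over all genes tested both ETV4WT libraries lay above both eGFP libraries in 22.6% and below in 22.9%. Leaving out eGFP replicate 1 gave 122 calls, eGFP replicate 2 131, ETV4WT replicate 1 119 and ETV4WT replicate 2 325.

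**Figure D1:**
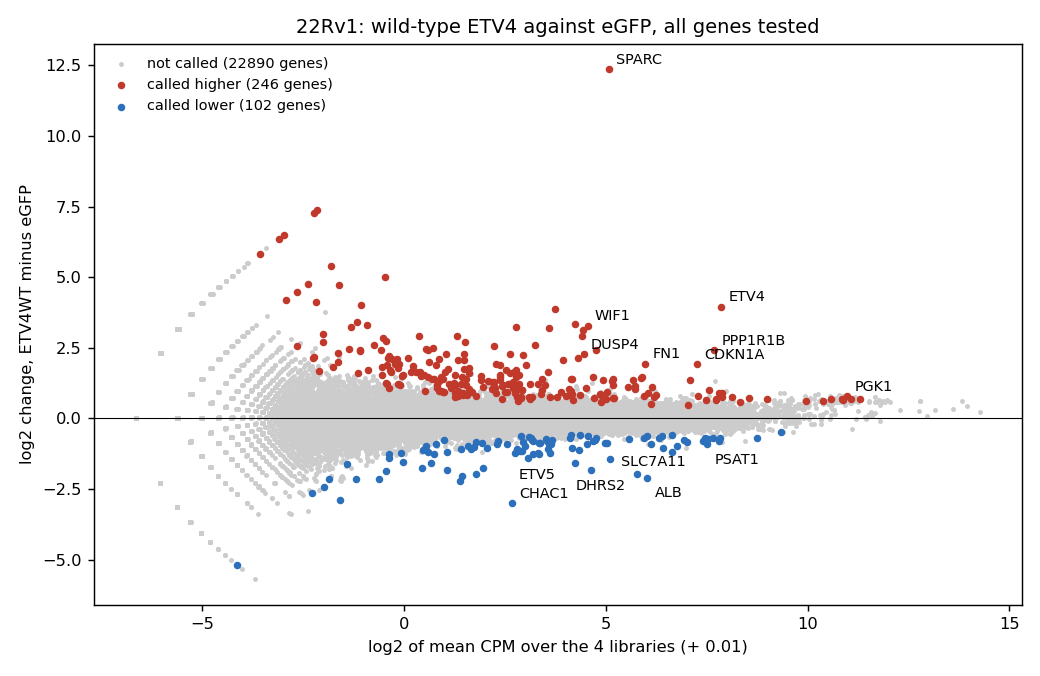
Each point is a gene, with the log2 of its mean CPM over the 4 libraries (plus 0.01) on the horizontal axis and its log2 change, ETV4WT minus eGFP, on the vertical axis. Red marks the 246 genes called higher, blue the 102 called lower and grey the rest. SPARC stands alone at the top, and the called genes at high CPM lie close to 0.

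SPARC showed the largest change of any called gene. It encodes a secreted glycoprotein that binds collagen and modulates contact between cells and matrix. With eGFP it had 1 and 0 counts, and with ETV4WT 3209 and 3193 counts, or 69.9 and 65.2 CPM. The pooled counts differ by a ratio of 6560 with a 95% counting interval from 1180 to 259000, and the adjusted p was 4.69e-10. SPARC was thus near silent in both control libraries and moderately expressed in both ETV4WT libraries. In the ETV4AAA libraries it stood at 2230.3 and 2224.9 CPM. SPARC (ENSG00000113140) lies on chromosome 5 from 151661096 to 151687165 on the minus strand.

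Genes that read out ERK signalling moved in both directions. Of 22 genes in a list of ERK pathway output, 5 were called higher and 2 lower, against 1.06% and 0.439% of all genes tested. The median was 0.15. The genes higher were DUSP4, DUSP6, PHLDA1, LIF and SPRY4. DUSP4 and DUSP6 encode phosphatases that inactivate MAP kinases as negative feedback, and SPRY4 encodes an inhibitor of receptor tyrosine kinase signalling. DUSP4 rose from 7.45 and 7.60 to 34.9 and 37.8 CPM, a log2 change of 2.27 ± 0.12 (adjusted p = 1.65e-06). DUSP6 rose from 12.7 and 14.4 to 37.4 and 38.2 CPM (1.48 ± 0.12, adjusted p = 5.18e-05). PHLDA1, a pleckstrin-homology protein induced by growth factors, rose from 3.18 and 3.13 to 10.5 and 10.4 CPM (1.73 ± 0.13). SPRY4 rose from 11.9 and 10.3 to 20.4 and 25.7 CPM (1.05 ± 0.14). LIF, a cytokine of the interleukin-6 family, rose from 1.17 and 0.968 to 3.85 and 5.06 CPM (2.06 ± 0.27). SPRY4 and LIF lost their calls without eGFP replicate 2, with adjusted p-values of 0.0512 and 0.064.

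The genes of this list called lower were the other PEA3 factors. ETV5 fell from 12.6 and 13.1 to 5.77 and 5.06 CPM, a log2 change of -1.24 ± 0.13 (adjusted p = 0.000413). ETV1 fell from 23.4 and 24.7 to 11.2 and 11.9 CPM (-1.05 ± 0.13, adjusted p = 0.0017). Neither gene's groups overlapped, and neither lost its call when any 1 of the 4 libraries was left out. Apart from ETV1 and ETV5, no member of a list of 25 tested ETS genes other than ETV4 was called. ETV5 (ENSG00000244405) lies on chromosome 3 from 186046308 to 186110318 and ETV1 (ENSG00000006468) on chromosome 7 from 13891228 to 13991425. Of 26 genes reported as PEA3 factor targets, TWIST1 was called higher and 0 lower, with a median of 0.03. Of 12 genes of the machinery that degrades ETV4, TRIB3, a pseudokinase that is also an ATF4 target, was called lower and 0 higher. The shares over all genes tested were 1.06% called higher and 0.439% called lower.

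PEA3 factors bind a GGAA core, so promoters of genes that rose were read from the RefSeq table (GRCh38.p14), which matched 13926 of the 23203 symbols tested. The window runs from 250 bases before to 50 after the start. The letters AGGAAG, on either strand, occurred in 33.1% of 175 promoters of genes called higher and in 32.8% of the 13926. The longer ETS consensus CCGGAAGT occurred in 1.14% and 7.28%, and the AP-1 letters TGANTCA in 9.14% and 5.29%. None of these motifs contains another. A match is a stretch of letters only, and binding was not measured here. The promoters of SPARC, the largest rise, and DUSP6, an ERK feedback gene, are given as the 250 bases before the start, 5′ to 3′ on the gene's strand, with matches to these 3 motifs in capitals. SPARC is at chr5:151686916-151687165 on the minus strand and holds no match. DUSP6 is at chr12:89352502-89352751 on the minus strand and holds AGGAAG, in reverse complement, from position -210.
SPARC: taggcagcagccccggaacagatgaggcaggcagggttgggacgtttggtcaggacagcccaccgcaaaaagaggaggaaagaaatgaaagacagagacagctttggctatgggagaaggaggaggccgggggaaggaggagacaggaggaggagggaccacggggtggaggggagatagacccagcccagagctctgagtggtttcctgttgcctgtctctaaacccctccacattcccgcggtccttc
DUSP6: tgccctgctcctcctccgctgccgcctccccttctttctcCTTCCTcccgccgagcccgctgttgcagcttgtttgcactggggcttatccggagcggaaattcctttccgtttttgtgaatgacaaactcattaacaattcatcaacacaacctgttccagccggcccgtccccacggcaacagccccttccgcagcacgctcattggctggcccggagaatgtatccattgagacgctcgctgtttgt

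The 15 largest rises among genes averaging 5 CPM or more on either side, after SPARC and ETV4, were of genes of varied function. DAPL1, a small death-associated protein, rose from 1.5 and 1.87 to 28.8 and 20.9 CPM (log2 3.88 ± 0.25). CGA, the alpha subunit shared by the glycoprotein hormones, rose from 3.51 and 3.27 to 42.1 and 26.7 CPM (3.34 ± 0.25). WIF1, a secreted inhibitor that binds Wnt proteins, rose from 3.88 and 4.86 to 43.7 and 41.1 CPM (3.28 ± 0.15, adjusted p = 5.33e-06). In each of these the ETV4WT libraries lay several-fold above the controls.

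Among the others, COL2A1, the fibrillar collagen chain of cartilage, rose from 1.42 and 1.21 to 10.8 and 14 CPM (3.23 ± 0.26). TESC, a calcium-binding regulator of sodium-proton exchange, rose from 2.38 and 2.35 to 22.6 and 20.8 CPM (3.20 ± 0.26). RIPOR2, an inhibitor of a small GTPase, rose from 4.35 and 4.51 to 37.4 and 39.8 CPM (3.12 ± 0.16, adjusted p = 1.65e-06). FAIM2, an inhibitor of FAS-mediated death, rose from 5.11 and 4.71 to 36.0 and 39.1 CPM (2.94 ± 0.18). P2RY1, a receptor for extracellular ADP, rose from 7.92 and 9.10 to 44.4 and 46.1 CPM (2.41 ± 0.15). PPP1R1B, a phosphatase inhibitor also called DARPP-32, was the most abundant of the 15 after ETV4 and rose from 66.8 and 63.1 to 359 and 331 CPM (2.41 ± 0.12, adjusted p = 1.65e-06). CHODL, PGC, which encodes the pepsinogen progastricsin, and the prostaglandin transporter gene SLCO2A1 rose by log2 2.60, 2.56 and 2.30. Every gene of the 15, DUSP4 included, kept its call when any 1 of the 4 libraries was left out. PPP1R1B (ENSG00000131771) lies on chromosome 17 from 39626740 to 39636626, RIPOR2 (ENSG00000111913) on chromosome 6 from 24804281 to 25042170 and WIF1 (ENSG00000156076) on chromosome 12 from 65050626 to 65121566.

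Some genes called higher were at or near 0 with eGFP and stayed low. The alarmin gene S100A9 had 0 counts with eGFP and 38 with ETV4WT, so it was at least 13-fold higher when the control group is set at 3 counts in all. APLNR, the apelin receptor, had 1 count with eGFP and 51 with ETV4WT, a ratio of 52.3 (95% counting interval 8.97 to 2110). Both stood between 0.347 and 0.612 CPM in the ETV4WT libraries, against 63.8 to 71.1 CPM for S100A9 and APLNR in the ETV4AAA libraries.

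The 15 largest falls held enzymes and transporters of amino acid and aldehyde metabolism. CHAC1, which degrades glutathione, showed the largest, from 14.1 and 8.52 to 1.46 and 1.37 CPM (log2 -3.00 ± 0.45, adjusted p = 0.00505). SLC7A11, the cystine-glutamate exchanger, fell from 48.9 and 52.1 to 18.5 and 18.8 CPM (-1.44 ± 0.14, adjusted p = 0.000182). The mitochondrial folate enzyme ALDH1L2 fell from 130 and 145 to 53.8 and 66.5 CPM (-1.19 ± 0.17), and the retinaldehyde dehydrogenase ALDH1A1 from 12.3 and 15.5 to 6.77 and 5.14 CPM (-1.22 ± 0.24). SLC6A9, a glycine transporter, fell from 32.6 and 23.9 to 8.16 and 11 CPM (-1.56 ± 0.32).

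Other genes among these falls were abundant in the control. ALB, the serum albumin gene that 22Rv1 expresses, fell from 95.4 and 116 to 25.3 and 24.4 CPM (-2.09 ± 0.23, adjusted p = 0.000593). DHRS2, a mitochondrial short-chain dehydrogenase, fell from 91.9 and 82.2 to 22.1 and 22.6 CPM (-1.96 ± 0.16, adjusted p = 5.18e-05). FAM129A, a stress-induced regulator of translation, fell from 39.2 and 38.6 to 10.4 and 11.5 CPM (-1.83 ± 0.12, adjusted p = 1.43e-05). In all 3 the lower control library exceeded the higher ETV4WT library by over 3-fold. JDP2, an AP-1 family repressor, BEST1, a chloride channel, CLSTN2, PEX5L, the protease CAPN5 and RELN, the secreted protein reelin, fell by log2 1.97, 1.76, 1.40, 1.26, 1.24 and 1.24. Of the 15, ALDH1A1, CAPN5, CLSTN2 and SLC6A9 lost their calls whichever of the 4 libraries was left out, with adjusted p-values up to 0.414. CHAC1 lost its call in 3 of the 4 cases (up to 0.142), all but that without eGFP replicate 2, and ALDH1L2 and JDP2 lost theirs without ETV4WT replicate 1 (0.0561 and 0.0634).

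**Figure D2:**
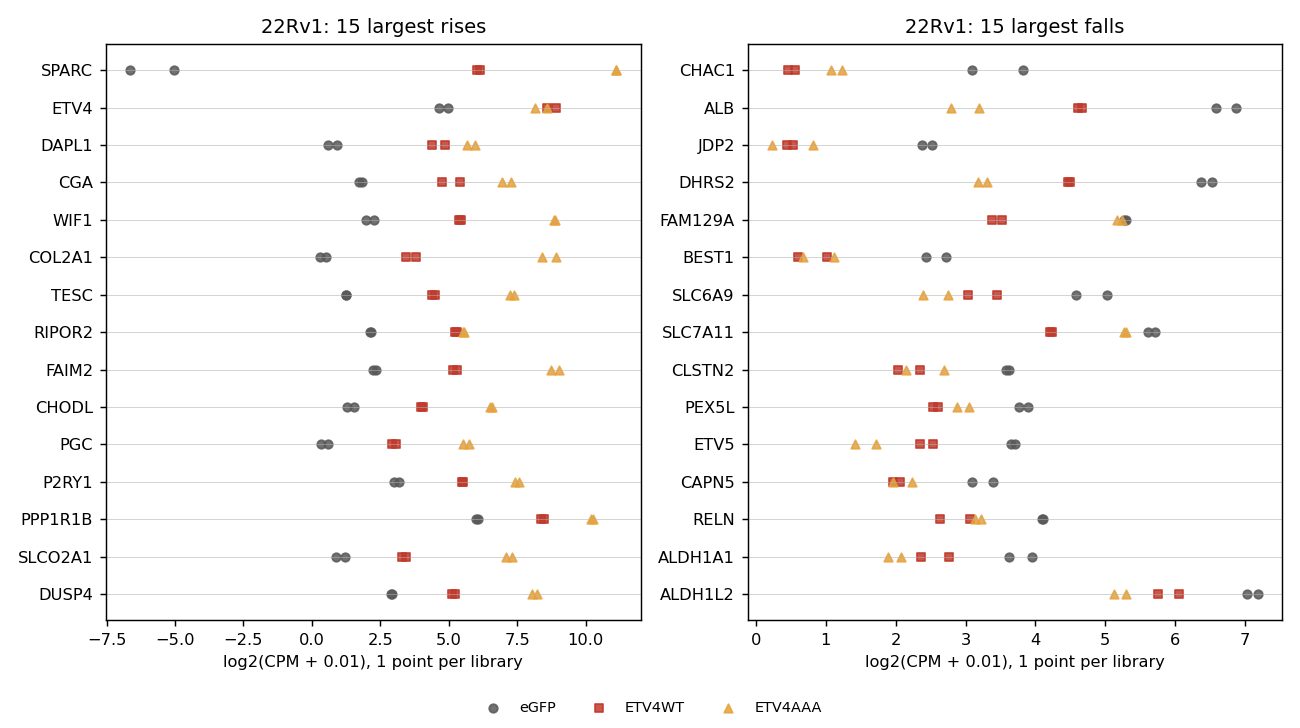
Each row is a gene, each point 1 library, and the horizontal axis is log2(CPM + 0.01). The left panel gives the 15 largest rises and the right panel the 15 largest falls among genes averaging 5 CPM or more on either side, with eGFP in grey, ETV4WT in red and ETV4AAA in orange. In every row the red points lie apart from the grey ones, and for FAM129A the orange points lie with the grey ones.

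The damage response list held 11 genes called higher, and 28 of its 30 had a positive log2 change. Its members can be induced after DNA damage and act in cell cycle arrest, repair and cell death. Damage itself was not measured here. Of 30 genes, 11 were called higher and 0 lower, against 1.06% and 0.439% of all genes tested, and the median log2 change was 0.75 against 0.01. CDKN1A, the cyclin-dependent kinase inhibitor p21, rose from 68.6 and 59.5 to 242 and 241 CPM (log2 1.92 ± 0.16, adjusted p = 5.24e-05). EDA2R, a death-domain receptor, rose from 5.56 and 5.97 to 17.0 and 19.1 CPM (1.65 ± 0.15). PLK2, a polo-like kinase, rose from 2.34 and 3.05 to 7.64 and 7.88 CPM (1.53 ± 0.15), and RPS27L, a ribosomal protein paralog, from 71.5 and 80.1 to 224 and 166 CPM (1.36 ± 0.18). SPATA18, a mediator of mitochondrial quality control, rose from 6.79 and 7.04 to 15.7 and 15.7 CPM (1.18 ± 0.16) and BTG2, an antiproliferative gene, from 14.6 and 14.7 to 31.7 and 29.8 CPM (1.07 ± 0.16). PHLDA3, SESN1, CCNG1, ZMAT3 and DDB2 were the other members called higher.

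MDM2, a ubiquitin ligase and a member of this list, did not pass the test. It stood at 78.2 and 86.0 CPM with eGFP and at 112 and 106 CPM with ETV4WT (log2 0.41 ± 0.13, adjusted p = 0.181). Over all 30 genes the summed level was 1040 and 1030 CPM with eGFP and 1890 and 1730 CPM with ETV4WT. The number of these genes called higher was 6, 5 and 5 without eGFP replicate 1, eGFP replicate 2 and ETV4WT replicate 1, and 10 without ETV4WT replicate 2, while the median stayed between 0.63 and 0.80. BTG2 lost its call in all of these cases but the last, with an adjusted p up to 0.097. CDKN1A (ENSG00000124762) lies on chromosome 6 from 36676460 to 36687339.

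The amino acid stress response held 12 genes called lower, and 29 of its 32 had a negative log2 change. When amino acids are short, the kinase GCN2 phosphorylates eIF2 and the transcription factor ATF4 induces amino acid synthesis, uptake and tRNA charging. Of 32 genes of this response, 12 were called lower and 0 higher, against 0.439% and 1.06% of all genes tested. The median log2 change was -0.68 against 0.01. SLC7A11, ALDH1L2 and CHAC1 were also among the largest falls. PSAT1, of serine synthesis, fell from 223 and 254 to 132 and 124 CPM (-0.90 ± 0.13, adjusted p = 0.00427), and SLC1A4, a neutral amino acid transporter, from 89.9 and 91.1 to 45.2 and 51.5 CPM (-0.90 ± 0.13). GARS and AARS, the glycyl- and alanyl-tRNA synthetases, fell from 211 and 243 to 139 and 133 CPM (-0.74 ± 0.12) and from 543 and 515 to 316 and 346 CPM (-0.67 ± 0.13). TRIB3 fell from 232 and 200 to 123 and 127 CPM (-0.79 ± 0.17, adjusted p = 0.0486). STC2, CEBPG, SLC7A1 and ASNS, the asparagine synthetase gene, were the other members called lower.

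Of the uncalled members, the factor ATF4 itself, chosen after its values were seen, stood at 762 and 807 CPM with eGFP and 605 and 524 CPM with ETV4WT (-0.48 ± 0.12, adjusted p = 0.0957). ATF3, a stress factor induced by ATF4, stood at 77.6 and 81.6 and at 62.4 and 58.1 CPM (-0.40 ± 0.13, adjusted p = 0.196). Both ETV4WT libraries lay below both eGFP libraries for 27 of the 32 genes, against 22.9% of all genes tested. The number called lower was 2 without ETV4WT replicate 1 and 6 in each of the other cases where 1 library was left out, and the median stayed between -0.70 and -0.59. PSAT1 and SLC7A11 kept their calls in all 4 cases, while TRIB3, AARS and ASNS lost theirs in all 4 (adjusted p up to 0.404) and GARS and SLC1A4 lost theirs in some (up to 0.079 and 0.066), each without ETV4WT replicate 1 and GARS also without eGFP replicate 2.

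ATF4 binds a composite site with the letters TGATGNAA together with a C/EBP partner. These letters, chosen after the values were seen, occurred on either strand in 4 of 10 matched promoters of list members called lower, in 6 of 27 of the whole list (22.2%) and in 2.04% of the 13926 promoters. For the 3 of these 4 whose match lies before the start, the 250 bases before the start are given 5′ to 3′ on the gene's strand, with the match in capitals. ASNS falls outside the rule for named genes and was chosen after its values were seen: it stood at 4.31 and 4.16 CPM with eGFP and 1.68 and 2.33 CPM with ETV4WT (log2 -1.08 ± 0.23). CHAC1 is at chr15:40953221-40953470 on the plus strand with the match from position -209. ASNS is at chr7:97872409-97872658 on the minus strand, from -68, and AARS, named AARS1 in RefSeq, at chr16:70289507-70289756 on the minus strand, from -187. CHAC1 and AARS1 carry the letters in reverse complement. In GENCODE 29 the CHAC1 gene begins at 40952962, so its stretch lies inside the gene. The AARS gene runs to 70289543 there, so its stretch overlaps the gene in part.
CHAC1: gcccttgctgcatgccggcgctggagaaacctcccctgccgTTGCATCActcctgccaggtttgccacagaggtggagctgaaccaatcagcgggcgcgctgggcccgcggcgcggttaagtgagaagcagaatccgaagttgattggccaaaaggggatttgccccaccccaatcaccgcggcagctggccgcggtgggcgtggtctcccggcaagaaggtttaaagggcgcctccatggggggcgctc
ASNS: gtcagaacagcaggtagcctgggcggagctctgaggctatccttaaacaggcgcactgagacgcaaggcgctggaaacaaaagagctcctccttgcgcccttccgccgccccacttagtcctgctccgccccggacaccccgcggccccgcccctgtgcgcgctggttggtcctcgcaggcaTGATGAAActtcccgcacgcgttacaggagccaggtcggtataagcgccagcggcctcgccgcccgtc
AARS1: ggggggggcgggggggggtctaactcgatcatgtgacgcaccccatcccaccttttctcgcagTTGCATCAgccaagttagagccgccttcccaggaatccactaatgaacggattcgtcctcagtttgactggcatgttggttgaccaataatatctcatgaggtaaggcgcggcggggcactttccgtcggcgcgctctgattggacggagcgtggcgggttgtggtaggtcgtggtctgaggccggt

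**Figure D3:**
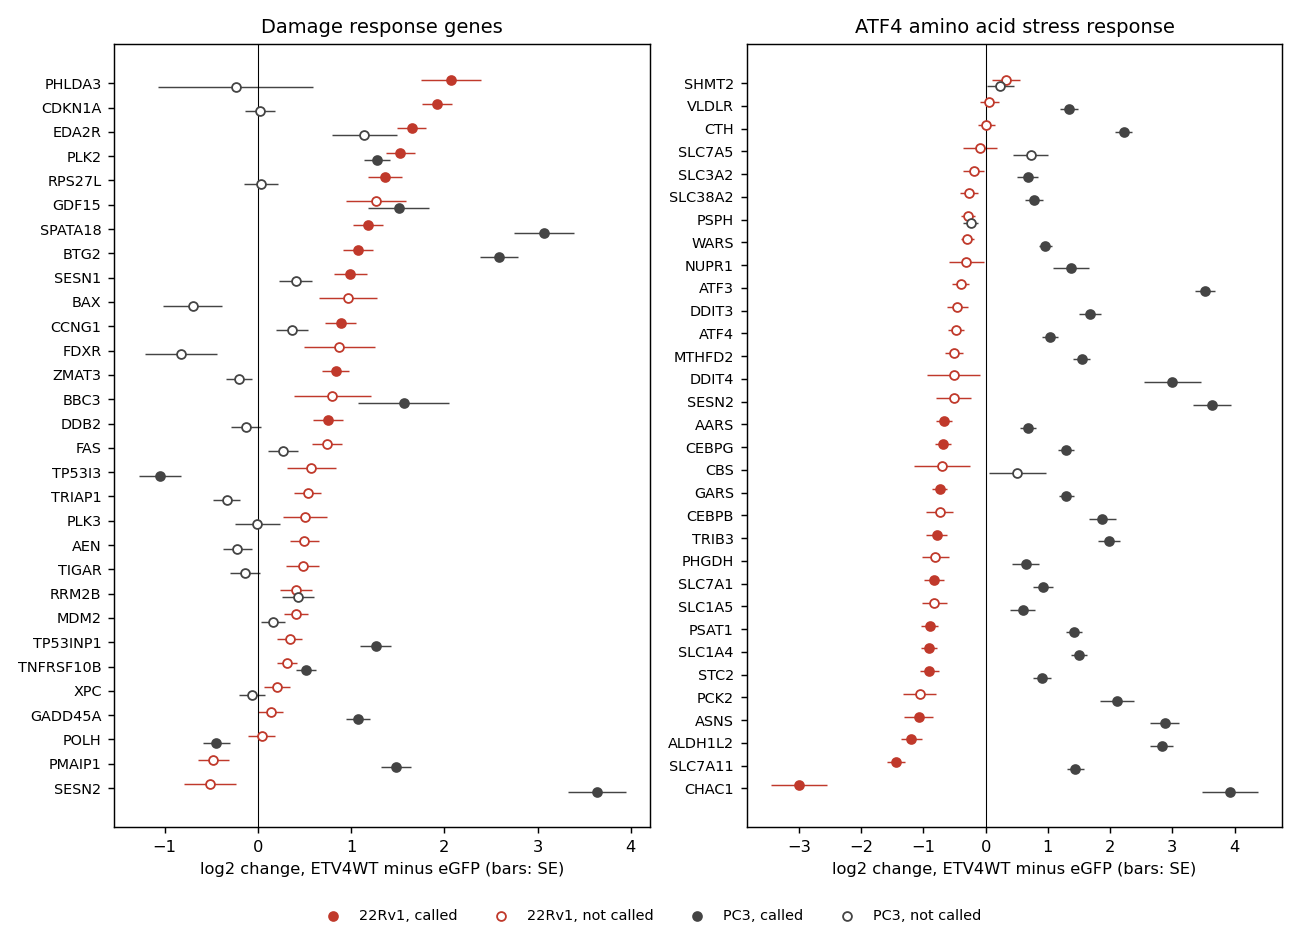
Each row is a gene of the damage response list (left) or of the ATF4 amino acid stress list (right), with its log2 change, ETV4WT minus eGFP, on the horizontal axis and bars of 1 SE. Red is 22Rv1, dark grey PC3, and filled points are called. In 22Rv1 28 of 30 damage response genes lie above 0 and 29 of 32 stress genes below it.

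Few cell cycle genes were called. CDKN1A was the only member called among 21 CDK inhibitors, cyclins and senescence regulators. Of 38 genes of DNA replication and G1/S, DTL, a substrate receptor of the CRL4 ubiquitin ligase, was called lower and 0 higher. However, 37 had a negative log2 change and the median was -0.31. Both ETV4WT libraries lay below both eGFP libraries in 26 of the 38 and above in 0, against 22.9% and 22.6% of all genes tested. In edgeR's test 18 were lower and 0 higher at an unadjusted p under 0.05, against 1578 and 1796 of all 23238 genes. DTL fell from 94.1 and 107 to 65.1 and 67.4 CPM (-0.60 ± 0.12, adjusted p = 0.0306), and lost its call whichever library was left out (adjusted p 0.0531 to 0.195). Of 36 genes of mitosis and G2/M, 0 were called and the median was -0.07. In edgeR's test 6 of these 36 were lower and 0 higher at an unadjusted p under 0.05, and limma-voom and the DESeq2 test called 0. Without the filter on low counts edgeR called 3 lower.

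Most androgen-induced genes were not called. Of 27 tested genes induced by androgen 3 were called higher and 0 lower, against 1.06% and 0.439% of all genes tested. The median was 0.13. KLK3, which encodes prostate-specific antigen, rose from 20.5 and 19.8 to 53.3 and 48.6 CPM (log2 1.34 ± 0.15, adjusted p = 0.00326). ACPP, prostatic acid phosphatase, rose from 16.2 and 18.1 to 46.5 and 41.6 CPM (1.36 ± 0.15, adjusted p = 0.000437). STEAP4, a metalloreductase, rose from 0.492 and 0.885 to 1.89 and 2.04 CPM. Of 19 tested luminal genes KLK3, AMACR and MSMB were called higher and GATA3 lower, the last from 8.25 and 7.06 to 3.81 and 4.29 CPM (-0.92 ± 0.16). ACPP kept its call without any 1 library, and AMACR lost its without eGFP replicate 1 (0.0592). KLK3 lost its in every case but that without ETV4WT replicate 2 (up to 0.0577), STEAP4 in every case but that without eGFP replicate 2 (up to 0.132), and MSMB and GATA3 without eGFP replicate 1 or ETV4WT replicate 1 (up to 0.16 and 0.171).

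Genes of other lineages rose singly. Of 24 tested neuroendocrine and neurosecretory genes, CHGB, PCSK1 and FOXA2 were called higher and 0 lower. Over all genes tested 1.06% were called higher and 0.439% lower. The median of these 24 was 0.06. CHGB, a granin of secretory vesicles, rose from 27.5 and 29.9 to 70.4 and 75.7 CPM (log2 1.35 ± 0.16, adjusted p = 0.00112). The prohormone convertase gene PCSK1 rose from 2.26 and 2.16 to 4.57 and 3.84 CPM, and FOXA2, a pioneer factor, stood at no more than 0.633 CPM in any of the 4 libraries. Of 28 tested hepatic and gut genes, the mucin MUC13 and the trefoil factor TFF2 were called higher and ALB lower. MUC13 rose from 50.9 and 59.6 to 98.2 and 96.8 CPM (0.82 ± 0.12). Of 16 tested basal genes LAMB3 was called higher. Of 14 tested keratins 0 were called in the main edgeR fit, with 6 higher and 0 lower at an unadjusted p under 0.05. Limma-voom called 0 and the DESeq2 test 1. In edgeR without the filter on low counts 7 keratins were called higher and 1 lower, and a fit to 22Rv1 alone called 1 higher. CHGB kept its call without any 1 library. MUC13 lost its without eGFP replicate 1 (0.0592), PCSK1 in every case but that without ETV4WT replicate 2 (up to 0.18), and FOXA2, TFF2 and LAMB3 in all 4 (up to 0.362).

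Matrix and mesenchymal genes rose in small numbers. Of 30 mesenchymal genes, SPARC, FN1, TWIST1 and ACTA2 were called higher and 0 lower. Over all genes tested 1.06% were called higher and 0.439% lower. The median of these 30 was 0.17. FN1, the matrix glycoprotein fibronectin, rose from 26.5 and 25.3 to 88.6 and 111 CPM (log2 1.94 ± 0.13, adjusted p = 1.46e-05). TWIST1, a basic helix-loop-helix factor of mesenchymal development, rose from 10.1 and 9.33 to 25.2 and 25.3 CPM (1.38 ± 0.12, adjusted p = 9.95e-05). ACTA2, smooth muscle actin, rose from 1.95 and 1.94 to 5.01 and 6.12 CPM (1.52 ± 0.23), and it lost its call without ETV4WT replicate 2 or either eGFP library (up to 0.107). Of 15 tested stromal and endothelial markers ACTA2 was the only one called, and their summed level was 16 and 15.4 CPM with eGFP and 17.2 and 20.3 CPM with ETV4WT.

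Of 27 tested collagen chains COL2A1 and COL9A2 were called higher, against 1.06% of all genes tested. COL9A2, a cartilage collagen, rose from 3.24 and 2.18 to 8.27 and 9.41 CPM (1.70 ± 0.25). SOX9, the transcription factor of cartilage and of prostate budding, rose from 34.0 and 30.7 to 65.3 and 79.5 CPM (1.16 ± 0.14, adjusted p = 0.00119). Of 29 integrin and laminin genes LAMA4 and LAMB3 were called higher, LAMA4 from 0.369 and 0.412 to 1.83 and 1.61 CPM. Of 32 epithelial junction genes the claudin gene CLDN1 was called higher and 0 lower, from 0.985 and 1.48 to 3.55 and 3.59 CPM. CD44, a hyaluronan receptor in a list of genes that mark PC3, rose from 120 and 129 to 255 and 249 CPM (1.02 ± 0.11, adjusted p = 0.000564). IGFBP3, which binds insulin-like growth factors, rose from 44.6 and 44.3 to 97.0 and 95.2 CPM (1.11 ± 0.11, adjusted p = 0.000229). Of these genes COL9A2 lost its call without eGFP replicate 2 (0.083), LAMB3 lost its in all 4 cases (0.0849 to 0.342), and the rest kept theirs.

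Of 37 tested Wnt pathway genes 2 were called higher and 1 lower, against 1.06% and 0.439% of all genes tested. WIF1 was the larger of the rises, the ligand gene WNT5B reached 1.20 and 1.41 CPM, and LGR5, a receptor for R-spondins, fell from 9.54 and 10.3 to 5.46 and 5.63 CPM (-0.84 ± 0.17). WNT5B and LGR5 lost their calls whichever library was left out (up to 0.234), and WIF1 kept its.

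Immune response genes held few calls. Of 36 interferon response genes BST2 was called higher and 0 lower, with a median of 0.08. Of 14 tested S100 genes S100A9 and S100A10 were called higher, against 1.06% of all genes tested. S100A10 rose from 270 and 299 to 501 and 440 CPM (0.73 ± 0.12). S100A10 lost its call without eGFP replicate 1 or ETV4WT replicate 1 (up to 0.097), and BST2 in every case but that without eGFP replicate 1 (up to 0.338).

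Of 34 genes of glycolysis and the hypoxia response, 5 were called higher and 0 lower, against 1.06% and 0.439% of all genes tested. The median log2 change was 0.55, with 30 positive and 4 negative. Both ETV4WT libraries lay above both eGFP libraries in 29 and below in 2, against 22.6% and 22.9% of all genes tested. In edgeR's test 19 were higher and 1 lower at an unadjusted p under 0.05. PGK1, phosphoglycerate kinase, rose from 1447 and 1517 to 2747 and 2369 CPM (log2 0.79 ± 0.11, adjusted p = 0.00421), and LDHA, lactate dehydrogenase A, from 1777 and 2053 to 3351 and 2890.1 CPM (0.70 ± 0.14). BNIP3 and BNIP3L, mitophagy receptors, rose by log2 0.76 and 0.67, and EGLN3, an oxygen-sensing prolyl hydroxylase, by 0.77. PGK1 lost its call without eGFP replicate 1 (0.0702). EGLN3 and BNIP3L lost theirs in all 4 cases, and LDHA and BNIP3 in every case but that without ETV4WT replicate 2 (up to 0.289 over these 4 genes). LDHA, EGLN3 and BNIP3L also lost their calls with upper-quartile scaling (0.0656, 0.0555 and 0.0924). In 22Rv1 the ETV4AAA libraries held PGK1 at 1743 and 1858 CPM, nearer to the eGFP level.

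Ribosomal protein genes were above the control by a small amount. All 37 genes of the list had a positive log2 change, from 0.52 to 0.86 with a median of 0.61, and 35 reached an unadjusted p under 0.05, but 0 passed the adjusted threshold. In each of the 37 both ETV4WT libraries lay above both eGFP libraries, against 22.6% of all genes tested. Outside the list, RPL30 was called higher (log2 0.68, adjusted p = 0.0367). So were RPL12, RPL27A, RPS12 and RPS20, among them RPL27A from 1446 and 1379 to 2487 and 2052 CPM (0.68 ± 0.12, adjusted p = 0.0159). These 4 lost their calls in every case but that without ETV4WT replicate 2 (up to 0.466), and without that library 13 of the 37 were called. With limma-voom, the DESeq2 test and a fit to 22Rv1 alone 10, 13 and 12 of the 37 were called, and all 37 without the filter on low counts. Ribosomal protein genes took 9.64% and 9.33% of the counts with eGFP and 14% and 11.8% with ETV4WT, so the ETV4WT libraries differed from each other by about as much as the lower of them differed from the controls. Ribosomal genes have many processed pseudogenes, and no source used here says how reads shared with them were counted.

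The change varied with gene length. Among protein-coding genes with at least 5 CPM, the median log2 change was 0.18 among the shortest genes of 4 equal bins and 0.05, -0.02 and -0.10 in the next bins up to the longest. Between the 2 ETV4WT libraries, replicate 1 minus replicate 2, the same medians ran from 0.13 to -0.12. Calls also varied: 44 genes were called higher and 9 lower in the shortest bin, and 23 higher and 29 lower in the longest. The bins between held 32 and 15, then 26 and 18. The part of length in these calls, or in the shift of ribosomal protein genes, which are short, was not tested. Other housekeeping lists held few calls. The median was 0.21 for 33 nuclear genes of oxidative phosphorylation, 0.13 for 13 mitochondrially encoded genes, 0.17 for 25 genes of the unfolded protein response and 0.28 for 23 heat shock chaperones. In the lists for oxidative phosphorylation, mitochondrial transcripts and the unfolded protein response 0 genes were called by the main edgeR fit, limma-voom or the DESeq2 test. At an unadjusted p under 0.05 in edgeR 6, 2 and 6 were higher and 1, 0 and 1 lower. Over all 23238 genes tested 1796 were higher and 1578 lower at that threshold. Without the filter on low counts edgeR called 1, 1 and 0 higher. The chaperone HSPA8 was the only member of these 4 lists called, from 1103 and 1251 to 2020 and 1730.5 CPM (0.67 ± 0.14, adjusted p = 0.0421). HSPA8 lost its call with DESeq2 and upper-quartile scaling (0.0581 and 0.0896) and in every case but that without ETV4WT replicate 2 (up to 0.304).

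**Figure D4:**
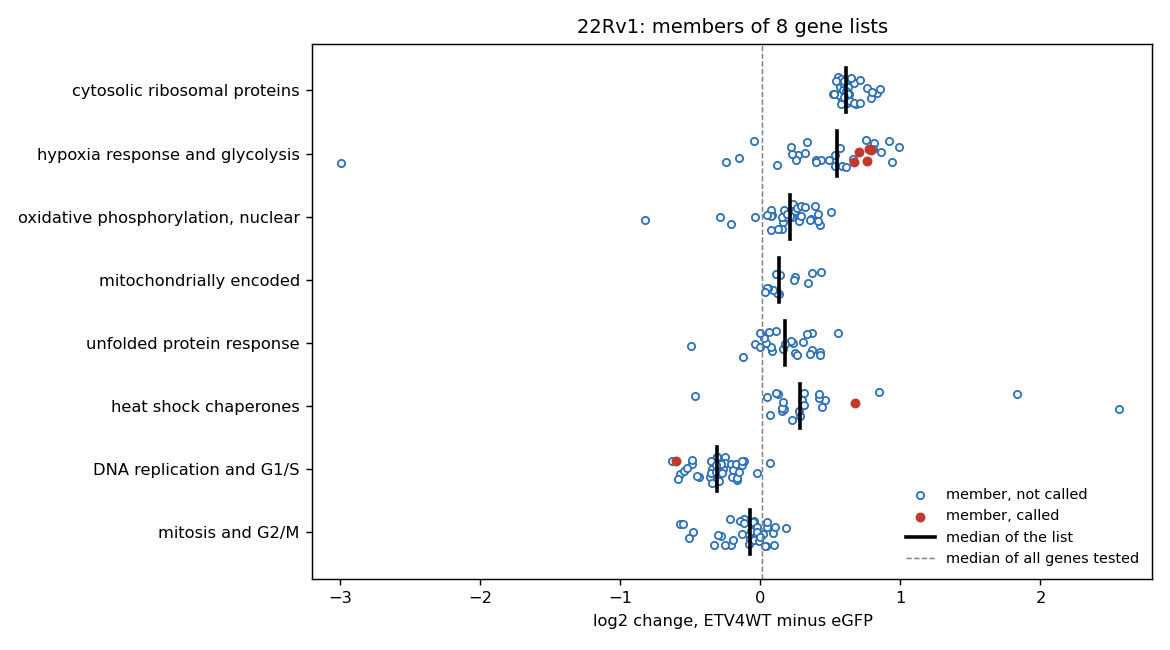
Each point is a member of 1 of 8 gene lists at its log2 change, ETV4WT minus eGFP, with small vertical offsets for legibility. Filled red points are called, black bars are list medians and the dashed line is the median of all genes tested, 0.01. The ribosomal list sits between 0.52 and 0.86 with no filled point, and the replication list lies mostly below 0.

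The ETV4AAA libraries of 22Rv1 share the eGFP controls with the comparison above, so their values are set beside those of ETV4WT and no agreement is drawn from them. ETV4 stood at 390 and 281 CPM with ETV4AAA and at 385 and 484 CPM with ETV4WT, and the difference did not pass the test (log2 -0.37). Between the constructs 5455 of 23238 genes were called (23.5%), 13.9% higher with ETV4AAA and 9.62% lower. DUSP6 stood at 848 and 873 CPM with ETV4AAA against 37.4 and 38.2 CPM with ETV4WT, a log2 difference of 4.51, WIF1 at 455 and 476 CPM against 43.7 and 41.1 CPM (3.46) and FN1 at 329 and 287 CPM against 88.6 and 111 CPM (1.63). ETV1 stood at 5.12 and 5.62 CPM against 11.2 and 11.9 CPM (-1.11). These 4 genes lay further from eGFP with the mutated form. Of the 246 genes called higher with ETV4WT, ETV4AAA was called higher still for 168 and lower than ETV4WT for 19. The constructs were not called different for 59. Of the 102 called lower, ETV4AAA was called lower still for 36 and higher than ETV4WT for 24, with 42 not called. The ETV4WT libraries that chose these genes also enter these counts.

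Other genes lay nearer to eGFP with ETV4AAA or at the level of ETV4WT. CDKN1A stood at 178 and 172 CPM against 242 and 241 CPM (-0.47), KLK3 at 31.1 and 29.2 against 53.3 and 48.6 CPM (-0.76), SLC7A11 at 38.4 and 39.2 against 18.5 and 18.8 CPM (1.06) and FAM129A at 37.8 and 35.9 against 10.4 and 11.5 CPM (1.76). For each of these 4 the difference between constructs was called. In the damage response list, which holds CDKN1A, 17 of 30 genes were called higher and 0 lower with ETV4AAA against eGFP (median 0.68). In the amino acid stress list, which holds SLC7A11, 22 of 32 were called lower and 2 higher (median -0.895). Over all genes tested 17.4% were called higher and 14.4% lower with ETV4AAA against eGFP. BMPR1B, a BMP receptor, stood at 20.7 and 24.6 CPM with eGFP, 42.5 and 43.3 with ETV4WT and 25.8 and 27.1 with ETV4AAA (log2 -0.70 between the constructs, called). RIPOR2 and CHAC1 did not differ between the constructs at the threshold, with log2 differences of 0.28 and 0.64. BMPR1B lost its call against eGFP without eGFP replicate 1 or ETV4WT replicate 1 (up to 0.0888), and the count between the constructs ran from 3662 to 5337 with 1 of these libraries left out.

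**Figure D5:**
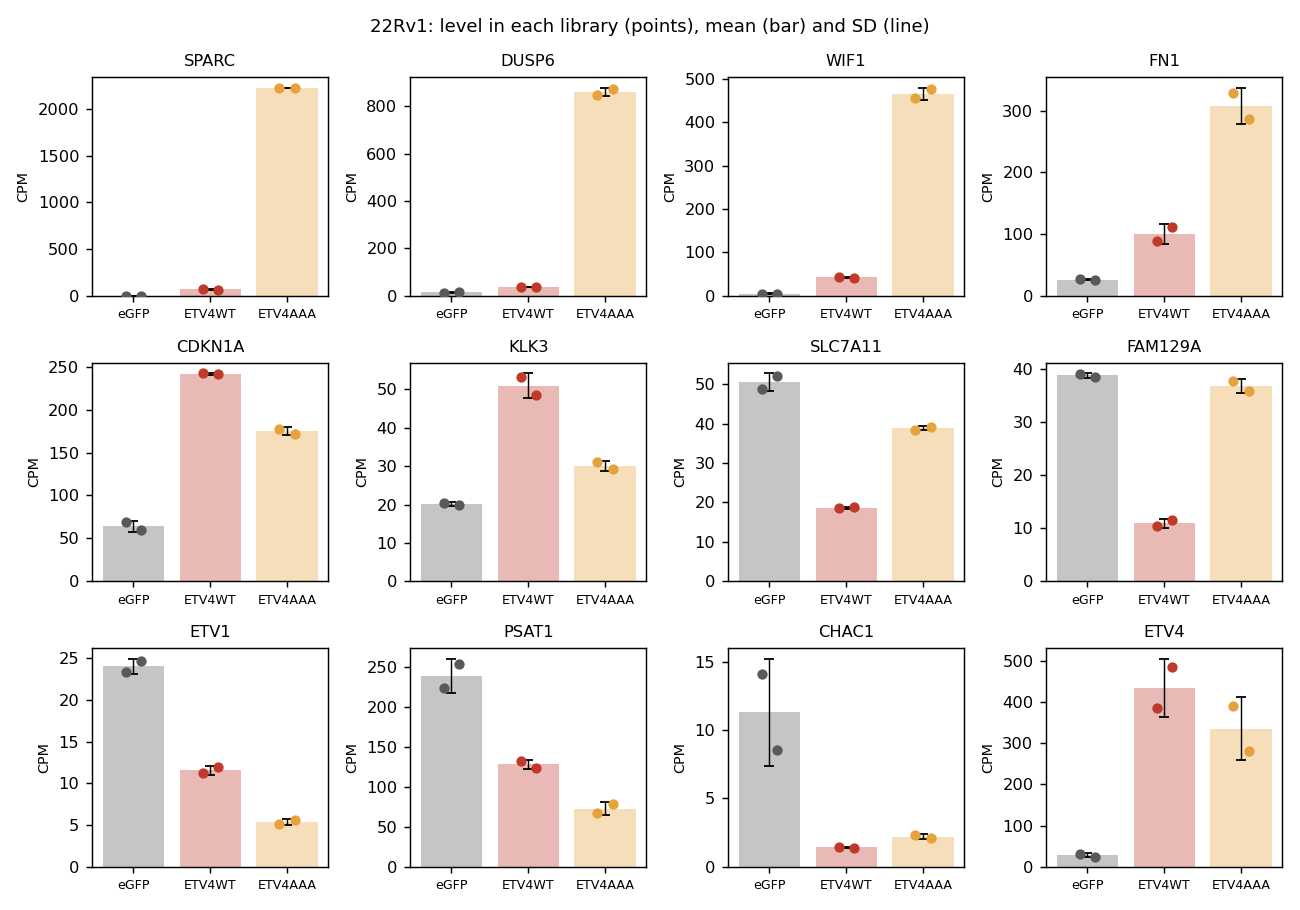
Each panel is a gene in 22Rv1, with CPM on a vertical axis from 0, points for the 2 libraries of each group, bars for their mean and lines for the SD. SPARC, DUSP6, WIF1 and FN1 rise from eGFP to ETV4WT to ETV4AAA, whereas CDKN1A, KLK3, SLC7A11 and FAM129A lie furthest from eGFP with ETV4WT.

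PC3 carried the same constructs, and the difference of the ETV4WT effect between the lines was tested by interaction. In PC3, ETV4 read 116 and 126 CPM in the controls and 215 and 112 CPM in the libraries labelled ETV4WT, so only replicate 1 was raised there (log2 0.43, not called) and the directions in PC3 rest on those labels. In PC3 5434 of 23238 genes were called (23.4%), 12.7% higher and 10.7% lower. Of the 246 genes called higher in 22Rv1, 61 were called higher in PC3 (24.8% of the 22Rv1 calls, 2.06% of the 2958 PC3 calls) and 28 lower (11.4%, and 1.13% of 2476). Of the 102 called lower in 22Rv1, 16 were called lower in PC3 (15.7%, and 0.646%) and 38 higher (37.3%, and 1.28%). The difference itself was called for 2903 genes (12.5%), 1144 with the higher effect in 22Rv1 (4.92%) and 1759 with the lower (7.57%). With 1 of the 8 libraries of this test left out it was called for 1425 (without PC3 eGFP replicate 2) to 4342 genes (without PC3 ETV4WT replicate 1), and for 1836 without PC3 ETV4WT replicate 2. With upper-quartile scaling, which moved the median difference of all genes from 0.02 to -0.16, 24.4% of the calls had the higher effect in 22Rv1 in place of 39.4%.

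In PC3 28 of the 32 amino acid stress genes were called higher and 0 lower. For 28 of the 32 the effect was called lower in 22Rv1 than in PC3 and for 0 higher. The median difference was -2.01 and lay 2.03 below the median of all genes under the main scaling and 2.04 below it with upper-quartile scaling. CHAC1 had a log2 change of -3.00 in 22Rv1 and 3.93 in PC3, a difference of -6.93 ± 0.63 (adjusted p = 4.11e-05), and PSAT1 of -0.90 and 1.42 (-2.32 ± 0.19, adjusted p = 2.47e-05). Of the 30 damage response genes the effect was called higher in 22Rv1 for 8, CDKN1A and RPS27L among them, and lower for 6, SPATA18 and BTG2 among them. Without 1 of the 8 eGFP and ETV4WT libraries of both lines in turn these counts were 3 to 9 (9 without PC3 ETV4WT replicate 1, at most 5 otherwise) and 5 or 6, and SPATA18 lost its call without PC3 eGFP replicate 1. Of the 28 stress genes 25 to 28 remained called in the same direction, all 28 of them without PC3 ETV4WT replicate 2. CDKN1A had a log2 change of 0.03 in PC3, a difference of 1.89 ± 0.22 (adjusted p = 0.000218). SPARC, at 70.1 and 68.8 CPM in PC3 with eGFP, changed by -0.32 there and was not called.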

How the data were processed

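Polyadenylated RNA of 22Rv1 and PC3 cells was analysed from 1 deposited table of raw counts per Ensembl gene, 58302 genes in 12 libraries. The authors checked reads with FastQC 0.11.9 and aligned them with STAR 2.5.3a to GRCh38, per the submitters' processing notes. How reads were counted, with which strand setting and annotation, is given in no source used here, so reads of a gene and an antisense neighbour cannot be told apart. Columns were matched to samples by line, construct and replicate number. Of the gene IDs 99.55% were found in GENCODE 29, which gave symbols, positions and types.

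In R 4.3.3, filterByExpr kept 23238 genes, which were scaled with TMM factors. A quasi-likelihood model with 1 mean for each of 6 groups was fitted to the 12 libraries with edgeR 4.0.16. The fit left 6 residual degrees of freedom and a common coefficient of biological variation of 0.149. ETV4WT was tested against eGFP in 22Rv1. Beside it, ETV4AAA was tested against eGFP and against ETV4WT in 22Rv1. The other tests were ETV4WT against eGFP in PC3 and the difference of the ETV4WT effect between the lines. Adjusted p-values are Benjamini-Hochberg values over all genes tested, and the SE is the log2 change divided by the square root of F. Where a group has 0 counts, the fold is a bound with that group set at 3 counts, and with 1 to 3 counts an exact 95% interval of the ratio is printed. Reads carry no molecular identifiers, so these cover counting error only. No replicate block entered the main fit. The code was tested on simulated data.

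The members and the 48 gene lists were chosen with earlier results of these data known, and lists are described by counts and medians with no set test. Named genes are ETV4, ETV1 and ETV5, the 15 largest rises and falls by log2 change among called genes with at least 5 CPM in a group, the 10 largest of each by CPM, and from each list up to 6 called and 2 uncalled members. A selection is named, and some genes that this rule takes are not reported here. Alternatives were other scalings, filters and tests (limma 3.58.1, DESeq2 1.42.0), fewer libraries and a replicate block. Promoters come from RefSeq (GRCh38.p14).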

Additional observations from a re-analysis of the deposited data

Results flagged for a closer look

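These values were singled out because the effect of ETV4WT differed between 22Rv1 and PC3 by an interaction test in edgeR, in which 2903 of 23238 genes were called. The PC3 side rests on the libraries labelled ETV4WT, of which 1 had no more ETV4 than the eGFP controls. Each value is the log2 change in 22Rv1 minus that in PC3.

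Among the largest falls of 22Rv1 the difference was -6.93 for CHAC1, -5.81 for BEST1, -4.90 for JDP2, -4.02 for ALDH1L2, -3.97 for ALDH1A1 and -3.95 for CLSTN2. It was -2.88 for SLC7A11, -2.11 for FAM129A, -2.01 for ETV5 and -1.97 for DHRS2. It was -1.52 for SLC6A9, -1.48 for PEX5L and -1.46 for RELN. ALDH1A1 and CLSTN2 had 2 and 6 counts in the PC3 controls and 16 and 39 with ETV4WT, ratios of 7.43 and 6.04 with 95% counting intervals from 1.75 to 66.6 and from 2.54 to 17.5, so their fitted differences rest partly on near-zero counts. The first 7 genes were called higher in PC3, as was ETV5, while FAM129A, DHRS2, SLC6A9, PEX5L and RELN were not called there.

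Among the largest rises the difference was 12.67 for SPARC, a fitted value that depends on near-zero counts in the 22Rv1 controls, 6.31 for FAIM2 and 5.90 for RIPOR2. It was 3.52 for ETV4, 3.32 for PPP1R1B, 3.20 for P2RY1 and 2.40 for DUSP4. FAIM2 had 12 counts in the PC3 controls and 1 with ETV4WT, a ratio of 0.0774 with a 95% counting interval from 0.00181 to 0.523, so its fitted difference also depends on near-zero counts. FAIM2, RIPOR2 and P2RY1 were called lower in PC3, and the other 4 were not called there. Of the damage response genes 8 had a called difference with the higher effect in 22Rv1, and of the amino acid stress genes 28 had one with the lower effect in 22Rv1. The lists share the stress gene SESN2. Without 1 of the 8 eGFP and ETV4WT libraries in turn, 18 or 19 of the 20 genes given here remained called in the same direction. SLC6A9 was not called in any of these cases but that without PC3 ETV4WT replicate 2, and ALDH1A1 was not called without PC3 eGFP replicate 1 or PC3 ETV4WT replicate 2.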

How the results depend on the processing

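With 2 libraries per group the number of calls depends on the libraries kept. The count of 348 genes for ETV4WT against eGFP became 904 without a filter on low counts, which tests 42400 genes, and 636 when only the 4 compared libraries were fitted. It ran from 119 to 325 when 1 of the 4 was left out, where the lone library of a group is assumed to vary like the other groups. It lay between 346 and 479 with the other scalings, filters, tests and the fit to 22Rv1 alone. The labels do not say that replicate numbers mark a shared culture or day, and with the replicate number as a block 351 genes were called, 314 of them among the 348. Deviations of same-numbered eGFP and ETV4WT libraries had a correlation of -0.149. A crossed pairing of these numbers, chosen after seeing the data, called 807. For the difference between the lines the count of 2903 became 4436 without the filter, ran from 1611 to 2130 with 1 of the 4 22Rv1 libraries left out, and was 3658 with the replicate block, with 51.0% of the calls higher in 22Rv1. With 1 of the 4 PC3 libraries left out, chosen after seeing the data, it ran from 1425 to 4342 (the highest without ETV4WT replicate 1, with 52.9% higher in 22Rv1) and was 1836 without ETV4WT replicate 2, whose ETV4 is at the control level. Fits to 22Rv1 or to the 4 libraries alone cannot give this difference. The count for ETV4AAA against ETV4WT stayed within 1.5 times its main value under every alternative run. Of 98 genes given with values for this comparison, 82 kept their side of the threshold in all 10 other alternatives, 50 did in all 4 cases with 1 library left out, and 0 changed sign in any of these. ATF4, not called in the main test, was called without the filter (adjusted p = 0.0248) and with the crossed pairing (adjusted p = 0.019). Apart from gains and losses given here or beside the results, causes were not tested.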

Other observations

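Some gene families outside the lists were looked at after the values were seen, and are given as counts only. Of 43 tested replication-dependent histone genes, whose transcripts mostly lack a poly(A) tail, 5 were called higher and 0 lower (1.06% and 0.439% of all genes tested), 40 had a positive log2 change and the median was 0.52. The 5 were HIST1H3E, HIST1H4H, HIST1H2AC, HIST1H3H and HIST2H2BE, with log2 changes of 1.80, 1.63, 1.38, 1.16 and 0.84. HIST1H3H lost its call without eGFP replicate 1 (adjusted p = 0.0592) and HIST2H2BE without either eGFP library (up to 0.0724). The linker histone gene H1F0 fell from 761 and 751 to 544 and 531 CPM (log2 -0.49 ± 0.11, adjusted p = 0.0461), and lost its call whichever of the 4 libraries was left out (up to 0.225).

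Of 20 cytosolic aminoacyl-tRNA synthetase genes, which charge tRNAs with amino acids, 5 were called lower and 0 higher, with a median of -0.27. The 5 were YARS, GARS, AARS, MARS and CARS. The shares over all genes tested were 0.439% called lower and 1.06% called higher. GARS, AARS and WARS of the 20 also belong to the amino acid stress list, and WARS was not called. YARS fell from 223 and 234 to 143 and 137 CPM (log2 -0.71 ± 0.10, adjusted p = 0.00407) and kept its call with any 1 library left out, whereas MARS lost its in all 4 cases (up to 0.282). XPOT, which exports tRNAs from the nucleus, fell from 261 and 306 to 174 and 175 CPM (-0.70 ± 0.15, adjusted p = 0.0456), and lost its call in all 4 cases (up to 0.261).

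Of 77 tested cytosolic ribosomal protein genes 76 had a positive log2 change, 5 were called higher and the median was 0.61, against 0.26 with ETV4AAA and -0.09 in PC3. Of 25 host genes of small nucleolar RNAs LRRC75A-AS1 and SNHG8 were called higher and 0 lower, with a median of 0.29. The shares over all genes tested were 1.06% called higher and 0.439% called lower.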
